A study of Mus musculus with 18 samples.

Results

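In 18 mouse kidneys, 10 genes of the cellular response to low oxygen were compared, out of 45706 genes in the deposited count tables, of which 30346 had a count. The genes were listed by name, with no threshold on a measured value, though with earlier results of these data known. They are *Hif1a* and *Epas1*, which encode the oxygen-regulated alpha subunits of the hypoxia-inducible factors HIF-1 and HIF-2, and 8 genes commonly used as readouts of these factors, namely *Egln3*, *Vegfa*, *Adm*, *Slc2a1*, *Pdk1*, *Bnip3*, *Ndrg1* and *Ankrd37*. All kidneys were removed after bilateral ischemia for 22.5 min and reperfusion for 12 h. The *Cxcl12* cohort held 5 KO and 3 control kidneys and the *Myc* cohort 5 of each, and uninjured kidneys were not analysed here, so that the list can be described as hypoxia genes by name and not by an induction measured in these data.

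KO mice carried a homozygous floxed *Cxcl12* or *Myc* gene, the Pax8rtTA transgene and TetOCre on the C57BL/6 background, and control mice carried the same floxed gene and Pax8rtTA but no TetOCre. Pax8rtTA is a transactivator active in tubule cells, which turns on the Cre recombinase when doxycycline is given, so that other kidney cells keep the floxed gene. Per the methods of the study, KO and control mice alike were male littermates, received doxycycline in the drinking water (2 mg/ml) for 14 days followed by a washout of 1 week, and were injured at an age of 10 to 12 weeks. The labels number the kidneys as replicates without stating that each came from another mouse, so p-values measure the spread between these libraries.

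In cells with enough oxygen, prolyl hydroxylases mark HIF alpha subunits for the VHL ubiquitin ligase, which sends them to degradation. When oxygen falls, the subunits are spared, pair with ARNT and bind DNA at the core letters ACGTG or GCGTG near their targets. Much of this control acts on the protein, and RNA levels of *Hif1a* and *Epas1* do not measure HIF activity. In the kidney, HIF-1 alpha is known mainly from tubule cells, and HIF-2 alpha from endothelial, glomerular and interstitial cells.

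Promoters were available from RefSeq for 8 of the 10 genes, in 10 windows of 250 bases before to 50 bases after a transcript start, and for *Ndrg1* and *Epas1* there was no entry. Both strands were searched for ACGTG and GCGTG, which on the other strand read CACGT and CACGC. A window with at least 1 match was present for 8 of the 8 genes, against 43.8% of all 32851 promoters in the table, and a window with ACGTG for 6 of the 8 genes, against 19.6% of all promoters. A gene with several windows had more than 1 chance to match, and a match is not a measured site. Counted by window, 8 of the 10 had at least 1 match and 6 of the 10 had ACGTG. *Vegfa*, at its upstream start, and *Pdk1* each also had a window with 0 matches. The letters G and C made up 54.7 to 71.7% of the windows with a match, and 62.0% and 40.3% of these 2. The promoters compared with were not matched for this share. The 8 genes also include *Hif1a*, which is a regulator and not one of the readouts. The 250 bases before the start are given on GRCm38.p6, 5′ to 3′ on the strand of the gene, with matched letters in capitals, for *Egln3*, whose RNA differed most between the cohorts, for *Hif1a*, for *Slc2a1*, and for *Bnip3*, which had 5 matches.
Egln3, chr12:54203875-54204124, minus strand: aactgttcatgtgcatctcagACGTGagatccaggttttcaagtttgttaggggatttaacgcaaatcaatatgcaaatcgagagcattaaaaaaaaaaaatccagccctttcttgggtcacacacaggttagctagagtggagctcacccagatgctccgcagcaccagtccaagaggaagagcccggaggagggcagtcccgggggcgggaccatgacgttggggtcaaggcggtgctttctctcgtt
Hif1a, chr12:73907617-73907866, plus strand: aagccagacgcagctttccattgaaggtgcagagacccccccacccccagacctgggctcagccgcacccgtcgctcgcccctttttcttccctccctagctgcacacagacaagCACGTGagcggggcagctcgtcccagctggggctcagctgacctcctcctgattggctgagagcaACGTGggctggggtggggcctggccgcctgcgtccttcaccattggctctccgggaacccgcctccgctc
Slc2a1, chr4:119108495-119108744, plus strand: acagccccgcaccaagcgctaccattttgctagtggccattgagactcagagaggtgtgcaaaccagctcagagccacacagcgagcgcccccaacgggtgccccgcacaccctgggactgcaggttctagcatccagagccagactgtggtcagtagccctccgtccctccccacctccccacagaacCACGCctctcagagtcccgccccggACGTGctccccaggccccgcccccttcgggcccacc
Bnip3, chr7:138909507-138909756, minus strand: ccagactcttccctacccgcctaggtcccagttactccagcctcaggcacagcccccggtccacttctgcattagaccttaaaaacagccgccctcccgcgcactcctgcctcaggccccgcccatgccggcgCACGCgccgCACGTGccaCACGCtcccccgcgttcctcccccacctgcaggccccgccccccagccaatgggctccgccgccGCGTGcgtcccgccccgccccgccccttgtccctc

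The reads assigned to genes numbered 12918220 to 29749500 per kidney. Unmapped reads made up less than 5% in 6 kidneys (2 *Cxcl12* KO, 2 *Myc* KO and 2 *Myc* control), each with at least 22437067 reads on genes against at most 18006784 in the other 12. The labels name no sequencing batch. In the text, a level is in CPM, the count of a gene scaled to a common library size with TMM factors, and a log2 fold change with its standard error (SE) comes from edgeR's quasi-likelihood test with Benjamini-Hochberg adjustment over all genes tested. *Myc* passed this test in *Myc* KO kidneys, with a log2 fold change of -1.61. *Cxcl12* had a log2 fold change of -0.73 in *Cxcl12* KO kidneys with an adjusted p of 0.094 in edgeR. None of the 47 marker genes in 8 lists for kidney cell types, blood cells and tubule injury was at 0 in any kidney, the lowest count being 13. In whole kidneys, fewer cells of a type and less RNA per cell cannot be told apart.

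The 10 genes covered a wide range of levels. Per kilobase of exon and averaged over all kidneys, *Ndrg1* stood at 382 CPM, followed by *Slc2a1* at 62.3, *Vegfa* at 55.4, *Hif1a* at 52.2 and *Epas1* at 42.7. *Adm* had 27.2 and *Bnip3* 18.7 CPM per kilobase. *Egln3* and *Pdk1* were near each other with 4.68 and 4.42, and *Ankrd37* was lowest with 0.583 CPM per kilobase. *Ankrd37* had only 8 to 36 counts per kidney, and 26.4% of its exon bases also lie in *Ufsp2* or *Lrp2bp*, so its values are the least certain of the list. *Ndrg1* shared 8.43%, *Hif1a* 5.6% and *Slc2a1* 2.99% of their exon bases with other genes, and reads there cannot be assigned to one gene without strand.

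**Figure D1:**
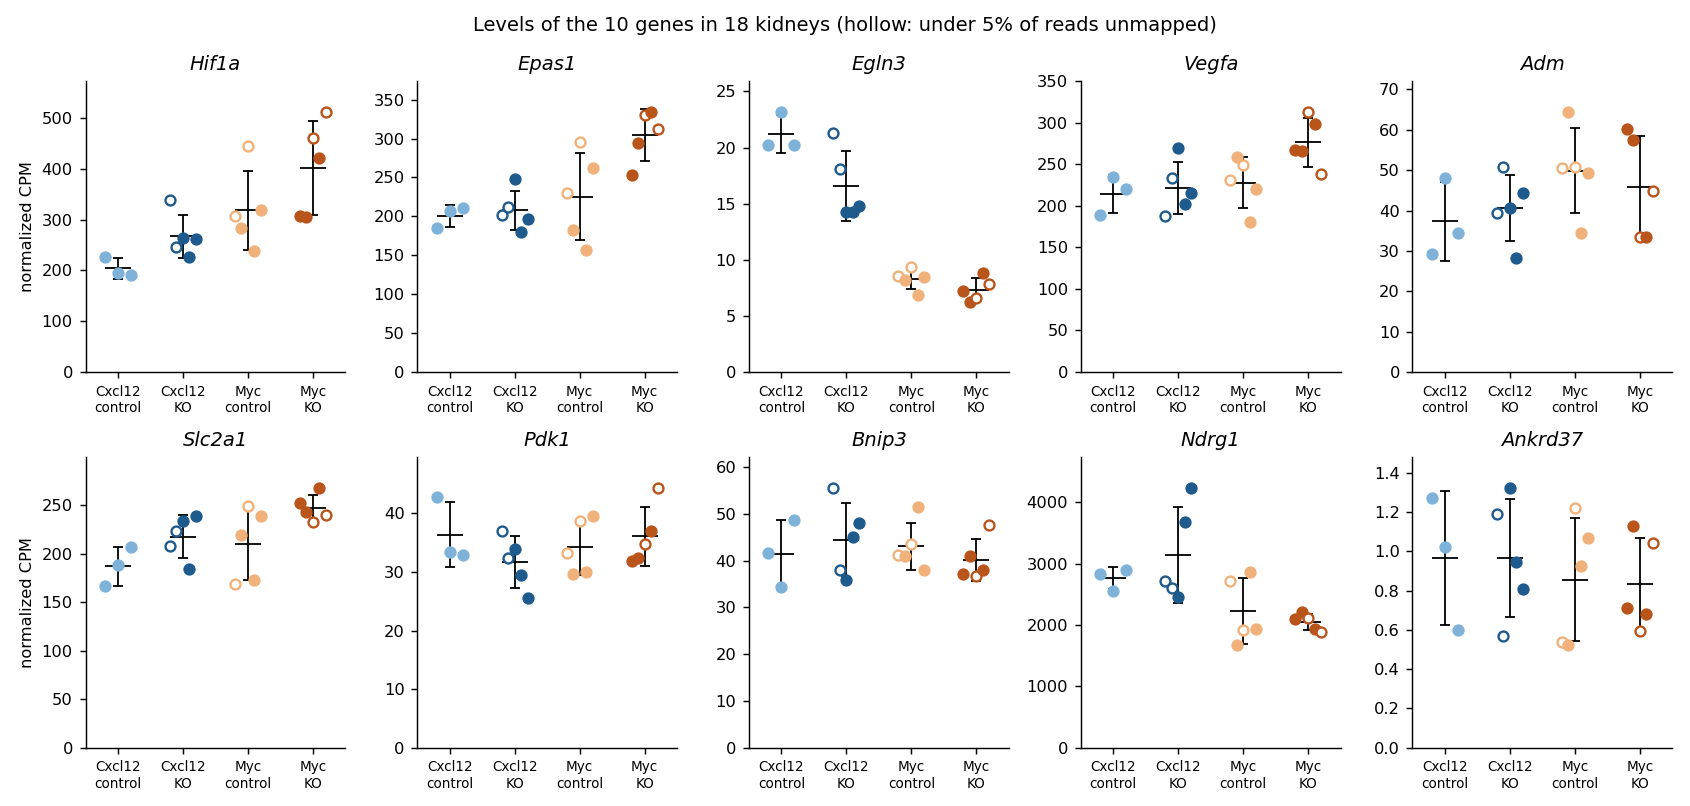
Normalized CPM (y axis, from 0) of each gene in each kidney of the 4 groups (x axis), with the group mean and SD in black and hollow points for kidneys with under 5% of reads unmapped. The 8 kidneys of the *Cxcl12* cohort lie between 14.2 and 23.1 CPM for *Egln3* and the 10 kidneys of the *Myc* cohort between 6.25 and 9.34, while the cohorts overlap in each of the other 9 genes.

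No gene of the list passed the test for either deletion. In *Cxcl12* KO against *Cxcl12* control kidneys, edgeR called 0 of the 10 genes at an adjusted p under 0.05, where 0 of 15154 genes tested passed (0.0%). DESeq2 and limma-voom also called 0 of the 10, against 2.34% and 0.0% of all genes. An unadjusted p under 0.05 was reached by 2 of the 10, *Hif1a* and *Egln3*, and by 1976 of the 15154 genes tested. In *Myc* KO against *Myc* control kidneys, edgeR again called 0 of the 10 genes, against 246 of 14936 genes tested (1.65%). DESeq2 and limma-voom called 0 of the 10 there too, against 7.63% and 1.44% of all genes, with 1 of the 10, *Ankrd37*, left without an adjusted p by DESeq2. The 2 genes with an unadjusted p under 0.05 were *Vegfa* and *Epas1*, where 3268 of the 14936 genes tested had one. These numbers over all genes also apply to the counts of marker and pathway genes with an unadjusted p under 0.05 for either deletion below. KO and control kidneys overlapped for each of the 10 genes in both cohorts, while 9.45% of all genes did not overlap by *Cxcl12* genotype and 5.67% by *Myc* genotype. Their log2 fold changes had a median of 0.07 and a range from -0.36 to 0.39 in the *Cxcl12* cohort, and a median of 0.02 and a range from -0.17 to 0.44 in the *Myc* cohort, where the median of all genes was 0.00 in each.

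**Figure D2:**
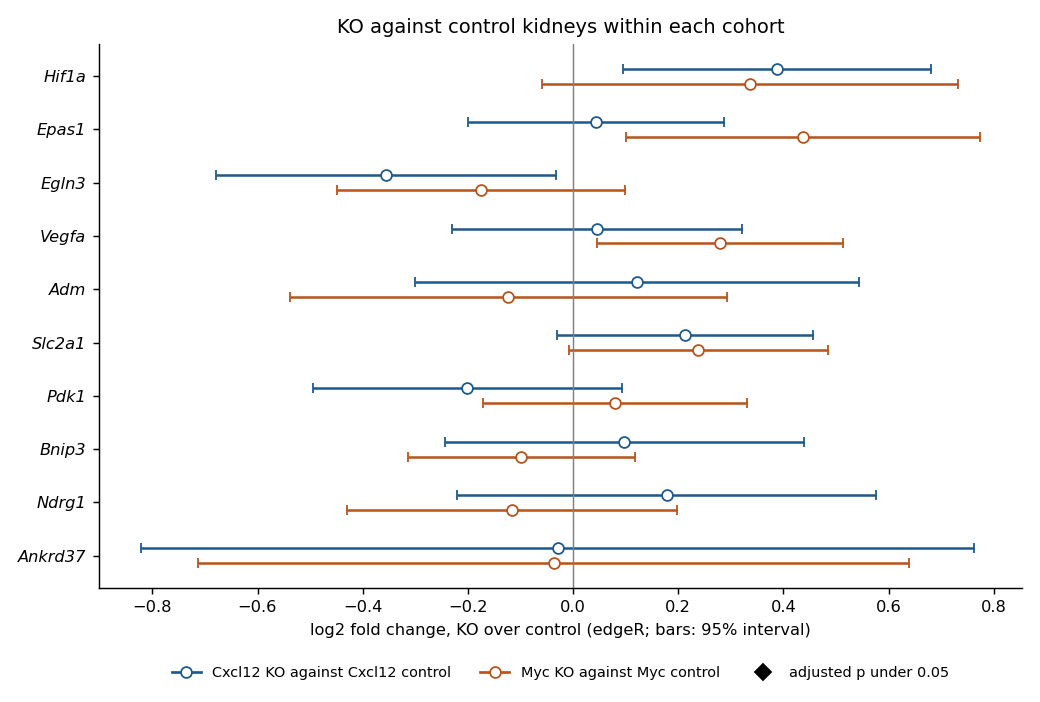
Log2 fold change of KO over control kidneys (x axis) for each gene (y axis) within the *Cxcl12* and the *Myc* cohort, with 95% intervals from edgeR. All points are hollow, since no gene had an adjusted p under 0.05, and the intervals of *Ankrd37* are the widest.

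*Hif1a* encodes HIF-1 alpha. It had 227, 194 and 190.2 CPM in the *Cxcl12* control kidneys and 339, 245, 264, 227 and 262 CPM in the *Cxcl12* KO kidneys. All 5 KO kidneys were above the mean of the controls, and the lowest of them was level with the highest control. The log2 fold change was 0.39 (SE 0.13, 95% interval 0.10 to 0.68, edgeR adjusted p = 0.27). The exact two-sided permutation test of the genotype gave p = 0.054 without adjustment over genes, where 0.018 is the smallest this design allows. In the *Myc* cohort, *Hif1a* had 306, 283, 445, 238 and 318 CPM in the control kidneys and 307, 305, 459.9, 421 and 511 CPM in the KO kidneys. These groups overlapped widely, with 3 of 5 KO kidneys above the control mean and a log2 fold change of 0.34 (SE 0.18, 95% interval -0.06 to 0.73, edgeR adjusted p = 0.30). In each of the 3 groups that held kidneys with under 5% of reads unmapped, the kidney with most *Hif1a* was one of them. In the other kidneys of each cohort alone, the log2 fold change of *Hif1a* stood at 0.29 for the *Cxcl12* deletion and at 0.31 for the *Myc* deletion. In 3 of the 8 marker lists the sums did not overlap between *Cxcl12* KO and control kidneys. They were 3637 to 4032 CPM in KO and 4276 to 4941 CPM in control kidneys for the proximal tubule, 70.0 to 164 against 60.3 to 64.8 CPM for leukocytes and 2590 to 3146 against 1613 to 2440 CPM for tubule injury, and their part in the *Hif1a* values was not tested. Over all 47 marker genes, edgeR called 0 for the *Cxcl12* and 0 for the *Myc* deletion. An unadjusted p under 0.05 was found for 14 and 9 of them, against 1976 of 15154 and 3268 of 14936 genes tested.

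*Epas1* encodes HIF-2 alpha. It had 230.0, 182, 295, 157 and 262 CPM in *Myc* control kidneys and 253, 294, 331, 334 and 313 CPM in *Myc* KO kidneys. All 5 KO kidneys lay above the control mean of 225 CPM, with 3 of them above every control and 2 within the control range. The log2 fold change was 0.44 (SE 0.16, 95% interval 0.10 to 0.77, edgeR adjusted p = 0.14). The exact permutation p was 0.040 without adjustment, where this design allows 0.0079. When 1 kidney at a time was left out, the edgeR adjusted p was under 0.05 in 1 of 10 fits and at most 0.28. That fit was without *Myc* control 3, the kidney with most *Epas1* among the controls. There the log2 fold change was 0.55 and the adjusted p 0.049 in edgeR, and 877 of 15108 genes passed. *Epas1* had 185, 207 and 211 CPM in the *Cxcl12* control kidneys and 202, 212, 248, 180.2 and 196 CPM in the *Cxcl12* KO kidneys. There the groups overlapped fully (log2 fold change 0.04, 95% interval -0.20 to 0.29, edgeR adjusted p = 0.90). The difference between the effects of the deletions on *Epas1*, *Myc* minus *Cxcl12*, was 0.39 on the log2 scale (95% interval -0.05 to 0.83, edgeR adjusted p = 0.52).

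Podocytes are the filtering epithelial cells of the glomerulus. All 6 of their markers, like *Epas1*, had positive log2 fold changes in *Myc* KO kidneys, though 0 of 6 passed edgeR's test (2 of 6 had an unadjusted p under 0.05). Most other lists were mainly positive too, with 6 of 7 endothelial and 6 of 7 leukocyte markers. The 3 lists for proximal tubule, for loop, distal tubule and collecting duct, and for fibroblasts and pericytes had 5 of 6 each. Red cells had 1 of 5 and tubule injury 1 of 4. The summed level of the 6 podocyte markers ran from 748 to 857 CPM in *Myc* KO and from 445 to 776 CPM in *Myc* control kidneys. Their part in the *Epas1* values was not tested.

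*Egln3* encodes PHD3, a prolyl hydroxylase that acts on HIF alpha subunits and is itself a HIF target. It had 20.2, 23.1 and 20.3 CPM in the *Cxcl12* control kidneys and 21.3, 18.1, 14.2, 14.3 and 14.8 CPM in the *Cxcl12* KO kidneys. Of the KO kidneys, 4 of 5 were below every control. The log2 fold change was -0.36 (SE 0.15, 95% interval -0.68 to -0.03, edgeR adjusted p = 0.35), and the exact permutation p was 0.071. The KO kidneys with 21.3 and 18.1 CPM were those with under 5% of reads unmapped. Without them, all 3 KO kidneys lay below all 3 controls and the log2 fold change was -0.57 (edgeR adjusted p = 0.070, where 80 of 14948 genes passed). The exact permutation p was then 0.1 over 20 regroupings, the smallest that 3 against 3 kidneys allow. How many of all genes separated these kidneys was not counted. With the class of unmapped share as a covariate in all 8 kidneys, the log2 fold change was -0.56 (edgeR adjusted p = 0.057, where 123 of 15154 genes passed). No *Cxcl12* control kidney had under 5% of reads unmapped, so this fit sets the same 3 KO against the same 3 control kidneys. It is not a separate result. In the *Myc* cohort, *Egln3* had 8.56, 8.19, 9.34, 6.84 and 8.48 CPM in control and 7.20, 6.25, 6.63, 8.82 and 7.83 CPM in KO kidneys. These groups overlapped, with a log2 fold change of -0.17 (SE 0.13, 95% interval -0.45 to 0.10, edgeR adjusted p = 0.44).

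*Vegfa* encodes VEGF-A, the growth factor that keeps peritubular and glomerular endothelium alive. In the *Myc* cohort it had 231, 258, 249.6, 181 and 221 CPM in control and 267, 266, 313, 299 and 238 CPM in KO kidneys. Of the 5 KO kidneys, 4 lay above every control, and the remaining one, *Myc* KO 5, lay within the control range. The log2 fold change was 0.28 (SE 0.11, 95% interval 0.05 to 0.51, edgeR adjusted p = 0.16), and the exact permutation p was 0.040 without adjustment. In the *Cxcl12* cohort, *Vegfa* had 189, 234 and 219.8 CPM in control and 188, 233, 269, 203 and 216 CPM in KO kidneys. Its log2 fold change there was 0.05 (95% interval -0.23 to 0.32, edgeR adjusted p = 0.91), an interval that still holds changes as large as that in the *Myc* cohort. The difference between the effects was 0.23 on the log2 scale (95% interval -0.13 to 0.58, edgeR adjusted p = 0.67). Endothelial markers stood at 721 to 1126 CPM summed over 7 genes in *Myc* control and at 887 to 1147 CPM in *Myc* KO kidneys, with 0 of 7 passing edgeR's test (2 of 7 with an unadjusted p under 0.05), and their part in the *Vegfa* values was not tested.

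*Adm* encodes adrenomedullin, a peptide that widens vessels. It had 37.3 ± 9.7 CPM (SD, n = 3) in control and 40.6 ± 8.2 CPM (SD, n = 5) in KO kidneys of the *Cxcl12* cohort. In the *Myc* cohort the means were 49.9 ± 10.6 CPM (SD, n = 5) for control and 45.9 ± 12.7 CPM (SD, n = 5) for KO kidneys. Kidneys of one group differed more than the group means did. The log2 fold change was 0.12 (95% interval -0.30 to 0.54) for the *Cxcl12* and -0.12 (95% interval -0.54 to 0.29) for the *Myc* deletion.

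*Slc2a1* encodes the glucose carrier GLUT1. It had 167, 188 and 207 CPM in *Cxcl12* control and 208, 223, 234, 184 and 239 CPM in *Cxcl12* KO kidneys. In the *Myc* cohort it had 169, 219, 249, 173 and 239 CPM in control and 253, 243, 233, 268 and 240.1 CPM in KO kidneys. The log2 fold changes were 0.21 (SE 0.11, edgeR adjusted p = 0.44) and 0.24 (SE 0.11, edgeR adjusted p = 0.24). The 5 *Myc* KO kidneys were close together and above the control mean, but the control kidneys spread over a range that covered 3 of them. *Pdk1* encodes a kinase that inhibits pyruvate dehydrogenase. Its group means lay between 31.7 and 36.4 CPM, and its log2 fold changes were -0.20 (95% interval -0.50 to 0.09) for the *Cxcl12* and 0.08 (95% interval -0.17 to 0.33) for the *Myc* deletion.

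*Bnip3* encodes a mitochondrial outer membrane protein that marks mitochondria for autophagy. Its group means lay between 40.1 and 44.4 CPM, with log2 fold changes of 0.10 (95% interval -0.24 to 0.44) for the *Cxcl12* and -0.10 (95% interval -0.31 to 0.12) for the *Myc* deletion. *Ndrg1*, named for its repression by N-myc, encodes a cytoplasmic stress protein. It had 2720.2, 1675, 1917, 2868 and 1939 CPM in *Myc* control and 2094, 2203.5, 2120.0, 1942 and 1889 CPM in *Myc* KO kidneys. All 5 KO kidneys were below the control mean and within the control range, but 4 of the 5 were above the control median of 1939 CPM. The log2 fold change was -0.12 (95% interval -0.43 to 0.20, edgeR adjusted p = 0.67). In the *Cxcl12* cohort *Ndrg1* had 2823, 2559 and 2903 CPM in control and 2713, 2595, 2457, 3683.5 and 4233 CPM in KO kidneys, with 2 KO kidneys within the control range, 1 below it and 2 above it (log2 fold change 0.18, 95% interval -0.22 to 0.58, edgeR adjusted p = 0.70). *Ankrd37*, a HIF target that encodes a small ankyrin repeat protein, had 0.524 to 1.32 CPM over all kidneys, and its 95% intervals, from -0.82 to 0.76 for the *Cxcl12* and from -0.71 to 0.64 for the *Myc* deletion, leave even sizeable changes undetectable at this depth.

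The test of the difference between the deletions, *Myc* minus *Cxcl12*, called 0 of the 10 genes in edgeR, against 11 of 15903 genes tested (0.0692%). DESeq2, which gave *Ankrd37* no adjusted p, and limma-voom also called 0, against 1.97% and 0.0189% of all genes. In edgeR, 0 of the 10 had an unadjusted p under 0.05, where 1812 of 15903 genes had one. The largest of these differences in size was that of *Epas1*, and the smallest was -0.02 for *Ankrd37*.

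The cohorts differed from each other in *Egln3*. The mean was 21.2 ± 1.7 CPM (SD, n = 3) among *Cxcl12* controls and 8.28 ± 0.91 CPM (SD, n = 5) among *Myc* controls, a difference of 2.55 times. The log2 fold change was 1.35 (SE 0.14, 95% interval 1.05 to 1.65, edgeR adjusted p = 3.3e-05). *Egln3* was the single gene of the list called by edgeR in this comparison, in which 316 of 15903 genes passed (1.99%). The groups did not overlap, as for 1926 of 15903 genes (12.1%). Among KO kidneys, the mean of *Egln3* was 16.5 ± 3.1 CPM (SD, n = 5) for *Cxcl12* and 7.35 ± 1.02 CPM (SD, n = 5) for *Myc*, with a log2 fold change of 1.18 (SE 0.13, edgeR adjusted p = 3.2e-05). Both differences kept their sign and stayed past the threshold in each of 24 alternatives, the control one at 1.28 to 1.45. Of these alternatives, 18 left out 1 kidney, and some of those kidneys were outside the 2 groups compared, which leaves the compared kidneys unchanged.

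Taken over genotypes, the 8 kidneys of the *Cxcl12* cohort held 14.2 to 23.1 CPM of *Egln3* and the 10 of the *Myc* cohort 6.25 to 9.34 CPM. Such a separation of all kidneys by cohort was found for 50 of 15903 genes (0.314%), and among the 10 genes for *Egln3* alone. From the highest mean to the lowest, the order was *Cxcl12* control, *Cxcl12* KO, *Myc* control and *Myc* KO. Neighbours of one cohort overlapped and were not called by edgeR, whereas *Cxcl12* KO and *Myc* control kidneys did not overlap. Within 2 Mb of *Egln3* on chromosome 12 (54178981 to 54203860 on GRCm38, minus strand), 18 other genes were tested, and 0 of them separated the cohorts. With 0.314% of all genes separated, 18 genes are too few to tell the region from others. The largest difference in size between controls among them was that of *Npas3*, with only 0.169 CPM in the *Cxcl12* and 0.870 CPM in the *Myc* cohort. The nearest tested neighbour, *Sptssa*, lies 459.6 kb away and had 43.0 and 45.2 CPM in the control kidneys of the *Cxcl12* and the *Myc* cohort. The floxed gene and any other difference between the cohorts cannot be told apart.

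**Figure D3:**
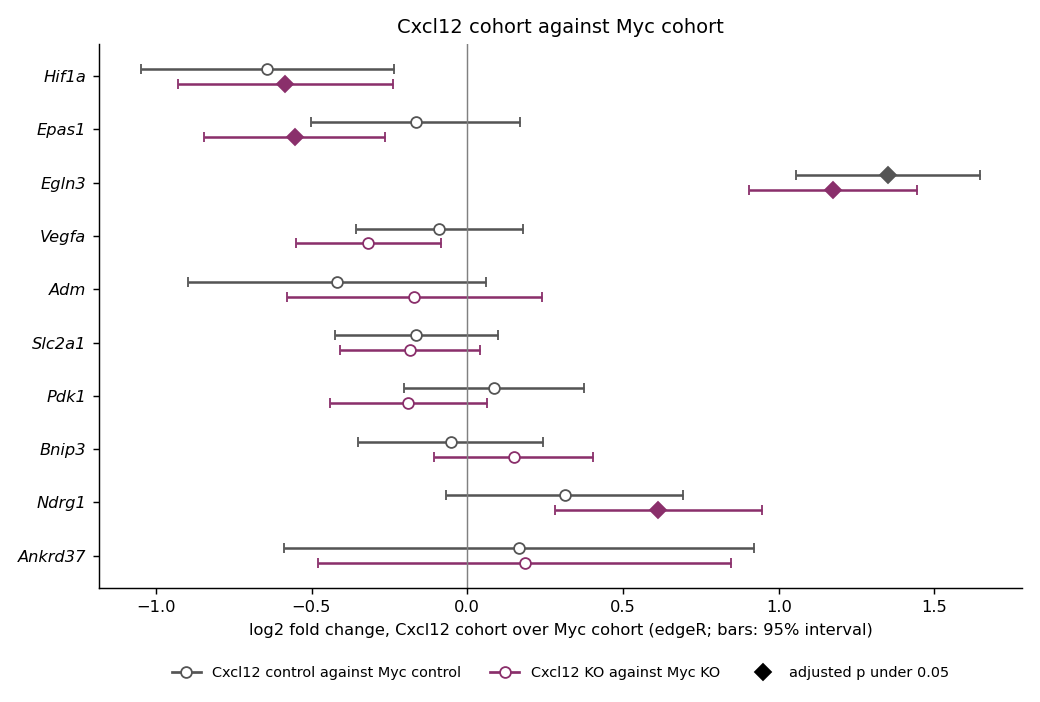
Log2 fold change of the *Cxcl12* over the *Myc* cohort (x axis) for each gene (y axis) in control kidneys (grey) and KO kidneys (purple), with 95% intervals from edgeR and filled diamonds for an adjusted p under 0.05. *Egln3* lies at 1.35 and 1.18, apart from the other genes, and the other diamonds belong to *Hif1a*, *Epas1* and *Ndrg1* in KO kidneys.

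The regulators were lower in the *Cxcl12* cohort among KO kidneys, whereas neither passed edgeR's test among controls. There, *Hif1a* averaged 204 ± 20 CPM (SD, n = 3) in the *Cxcl12* cohort against 318 ± 77 CPM (SD, n = 5) in the other, and the groups did not overlap, but its log2 fold change of -0.64 (SE 0.19, 95% interval -1.05 to -0.24) did not pass the test (edgeR adjusted p = 0.090), although DESeq2 called it (adjusted p = 0.025). DESeq2 called 2 of the 10 genes in this comparison, against 4.99% of all genes, and limma-voom 1, against 1.57%. *Epas1* had a log2 fold change of -0.17 between controls (SE 0.16, edgeR adjusted p = 0.64), and 0.0084 in the 12 kidneys with at least 5% of reads unmapped. Between the KO groups, 4 of the 10 genes passed edgeR's test, against 2416 of 15903 genes tested (15.2%). Besides *Egln3*, these were *Hif1a* with a log2 fold change of -0.58 (SE 0.16, edgeR adjusted p = 0.025), *Epas1* with -0.55 (SE 0.14, edgeR adjusted p = 0.014) and *Ndrg1* with 0.61 (SE 0.16, edgeR adjusted p = 0.017). *Egln3* and *Ndrg1* were thus higher, and *Hif1a* and *Epas1* lower, in *Cxcl12* KO than in *Myc* KO kidneys. The KO groups did not overlap in *Egln3*, *Epas1* and *Ndrg1*, as in 1621 of 15903 genes (10.2%). This comparison was added after the data had been seen. In the 12 kidneys with at least 5% of reads unmapped, where 337 genes passed (2.16%), only *Egln3* among the 10 had an adjusted p under 0.05 in edgeR, and the log2 fold changes were -0.47 for *Hif1a*, -0.51 for *Epas1* and 0.72 for *Ndrg1*.

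Cell type markers differed between the cohorts as well. In *Cxcl12* KO against *Myc* KO kidneys, edgeR called 5 of 7 leukocyte, 4 of 6 fibroblast and pericyte and 4 of 7 endothelial markers, all lower in *Cxcl12* KO, and 0 of 6 podocyte markers (2 of 6 with an unadjusted p under 0.05). Of all 15903 genes tested there, 2416 were called (15.2%) and 5033 had an unadjusted p under 0.05. The summed level of the leukocyte markers was 70.0 to 164 CPM in *Cxcl12* KO and 181 to 287 CPM in *Myc* KO kidneys. Fibroblast and pericyte markers summed to 303 to 409 and 412 to 614 CPM, and endothelial markers to 642 to 953 and 887 to 1147 CPM. Over all 47 markers, 1 was called higher and 15 lower in *Cxcl12* KO. These included 1 of 6 proximal tubule markers, lower, and of 4 tubule injury markers 1 higher and 1 lower. In control kidneys, where 316 of 15903 genes passed (1.99%), 1 of the 47 markers was called higher in the *Cxcl12* cohort, from the proximal tubule list, and 4 lower. The 4 were 1 of 4 tubule injury and 3 of 7 leukocyte markers. Leukocyte sums were 60.3 to 64.8 CPM in the *Cxcl12* cohort against 96.1 to 255 CPM in the *Myc* cohort. The part of these cells in the *Hif1a*, *Epas1* and *Ndrg1* values was not tested.

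Other genes of the pathway were examined in 8 lists with 82 genes. In edgeR, 0 of them passed for the *Cxcl12* deletion and 0 for the *Myc* deletion. DESeq2 called 4 and 9 of the 82, where it called 2.34% and 7.63% of all genes, and limma-voom called 0 and 0. In the machinery of oxygen sensing, 10 of 14 genes had a positive log2 fold change in *Cxcl12* KO kidneys and 6 of 14 in *Myc* KO kidneys, with medians of 0.06 and -0.06, and 1 and 6 of the 14 had an unadjusted p under 0.05. *Egln1*, which encodes the main HIF hydroxylase PHD2, had log2 fold changes of -0.16 (edgeR adjusted p = 0.55) and -0.11 (edgeR adjusted p = 0.56). *Cited2*, a competitor of HIF for the coactivators EP300 and CREBBP, had 0.26 (edgeR adjusted p = 0.36) in *Cxcl12* KO kidneys. *Crebbp* itself had 0.37 (edgeR adjusted p = 0.14) in *Myc* KO kidneys, where *Hif3a*, an alpha subunit that can curb the others, had -0.36 (edgeR adjusted p = 0.29).

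Secreted vascular and erythroid factors had the largest median change of the 8 lists in both cohorts, although none of them passed. Of the 7 tested, 6 had a positive log2 fold change in *Cxcl12* KO kidneys (median 0.78) and 5 in *Myc* KO kidneys (median 0.50), where 50.2% and 49.9% of all genes tested had one. An unadjusted p under 0.05 was found for 6 of 7 genes in each cohort, against 1976 of 15154 and 3268 of 14936 genes. The lists were chosen with earlier results of these data known, so these counts are a description and not a test of the list. *Pgf*, a relative of VEGF-A, had log2 fold changes of 1.60 (SE 0.56, edgeR adjusted p = 0.28) and 0.66 (SE 0.28, edgeR adjusted p = 0.20), with only 22 to 163 counts per kidney. *Apln*, which encodes the vessel peptide apelin, had 0.95 (SE 0.33, edgeR adjusted p = 0.28) in *Cxcl12* KO kidneys, and *Stc2*, which encodes a stanniocalcin, had -0.65 (SE 0.18, edgeR adjusted p = 0.093) in *Myc* KO kidneys. *Epo*, which encodes erythropoietin, had at most 2 counts in any kidney and was not tested. Of the leukocyte markers, 5 of 7 had a positive log2 fold change in *Cxcl12* KO and 6 of 7 in *Myc* KO kidneys, and 0 of 7 were called by edgeR in either (5 and 2 with an unadjusted p under 0.05). Their summed level was 70.0 to 164 CPM in *Cxcl12* KO against 60.3 to 64.8 CPM in control kidneys, and 181 to 287 CPM in *Myc* KO against 96.1 to 255 CPM in control kidneys. Tubule injury markers summed to 2590 to 3146 CPM in *Cxcl12* KO and to 1613 to 2440 CPM in *Cxcl12* control kidneys. The part of either in these values was not tested.

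**Figure D4:**
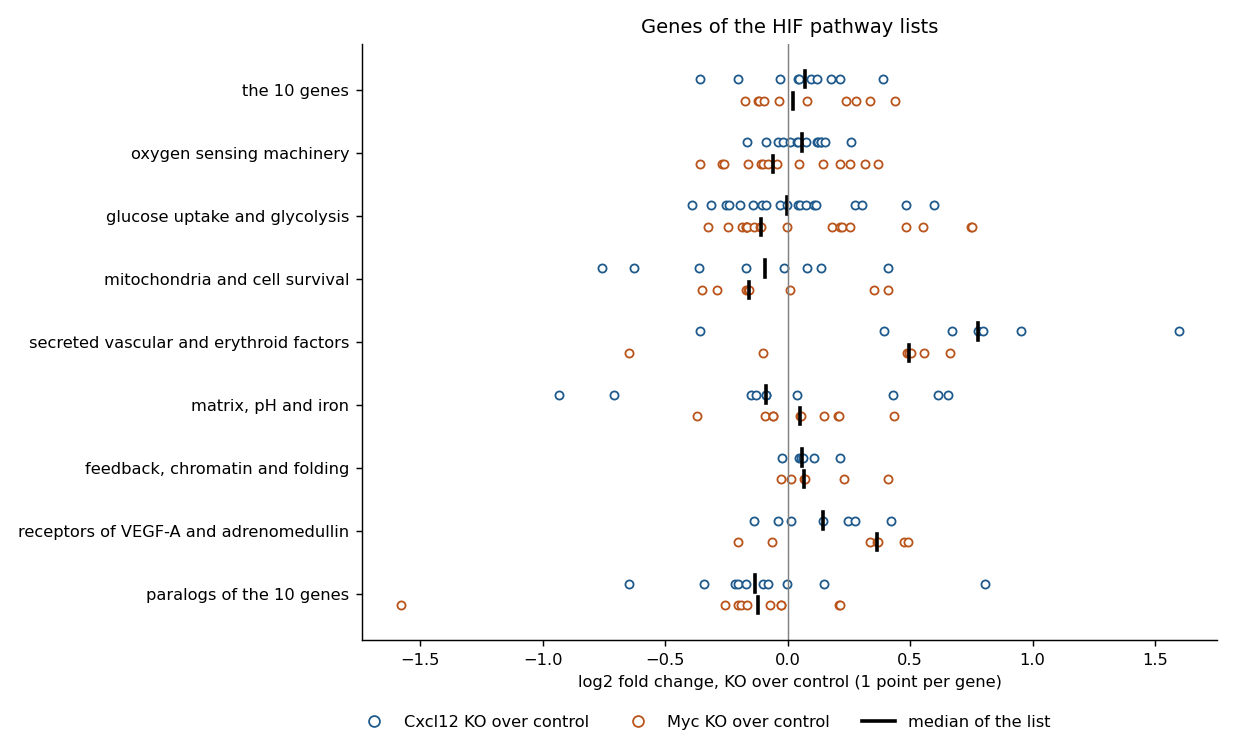
Log2 fold change of KO over control kidneys (x axis) for each tested gene of the 10 genes and of the 8 lists (y axis), with the *Cxcl12* cohort in blue, the *Myc* cohort in brown and the median of each list as a black bar. The medians of the secreted factors, 0.78 and 0.50, lie farthest from 0, and *Adm2* at -1.58 is the lowest point.

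Of the 19 genes for glucose uptake and glycolysis, 9 had a positive log2 fold change in *Cxcl12* KO and 8 in *Myc* KO kidneys, with medians of 0.00 and -0.11 and an unadjusted p under 0.05 for 2 and 4. *Slc2a3*, which encodes the glucose carrier GLUT3, had 0.60 (SE 0.22, edgeR adjusted p = 0.29) and 0.75 (SE 0.24, edgeR adjusted p = 0.11). *Hk2*, which encodes a hexokinase, had 0.75 (SE 0.20, edgeR adjusted p = 0.081) in *Myc* KO kidneys, and *Slc16a3*, which encodes a lactate exporter, had 0.48 (edgeR adjusted p = 0.57) in *Cxcl12* KO kidneys.

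Among 8 genes for mitochondria and cell survival, 3 had a positive log2 fold change in either cohort, and 2 and 3 had an unadjusted p under 0.05. *Ak4*, which encodes a mitochondrial adenylate kinase, had -0.63 (SE 0.10, edgeR adjusted p = 0.065) in *Cxcl12* KO and 0.35 (SE 0.15, edgeR adjusted p = 0.19) in *Myc* KO kidneys. The difference between these effects was 0.97 on the log2 scale (SE 0.20, 95% interval 0.56 to 1.38) and missed the threshold with an edgeR adjusted p of 0.061. *Ndufa4l2*, a subunit that lowers respiration, had -0.76 (edgeR adjusted p = 0.35) in *Cxcl12* KO kidneys, with only 11 to 47 counts per kidney. *Ddit4*, an inhibitor of mTOR signalling, had 0.41 (edgeR adjusted p = 0.13) in *Myc* KO kidneys.

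In the list for matrix, pH and iron, 4 of 10 genes had a positive log2 fold change in *Cxcl12* KO and 6 in *Myc* KO kidneys, and 5 and 1 had an unadjusted p under 0.05. The carbonic anhydrases *Car9* and *Car12* had -0.93 (edgeR adjusted p = 0.35) and -0.71 (edgeR adjusted p = 0.25) in *Cxcl12* KO kidneys. In *Myc* KO kidneys, *Lox*, which crosslinks collagen, had 0.43 (edgeR adjusted p = 0.38) and *Tfrc*, the transferrin receptor gene, had -0.37 (edgeR adjusted p = 0.12). In the list for feedback, chromatin and folding, 5 of 6 genes had a positive log2 fold change in either cohort, 0 and 2 of them with an unadjusted p under 0.05. There the transcription repressor gene *Bhlhe40* had 0.11 and 0.41 (edgeR adjusted p = 0.78 and 0.11), and the histone demethylase gene *Kdm3a* had 0.22 and 0.23 (edgeR adjusted p = 0.38 and 0.16).

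Receptors of VEGF-A and adrenomedullin had a positive log2 fold change in 5 of 7 genes in each cohort, with medians of 0.14 and 0.36 and an unadjusted p under 0.05 for 2 of 7 in each. *Flt1*, which encodes VEGFR1, had 0.28 (edgeR adjusted p = 0.36) in *Cxcl12* KO and 0.49 (edgeR adjusted p = 0.16) in *Myc* KO kidneys. *Kdr*, which encodes the main signalling receptor VEGFR2, had 0.48 (edgeR adjusted p = 0.12) in *Myc* KO kidneys, and *Ramp3*, part of an adrenomedullin receptor, had 0.42 (edgeR adjusted p = 0.42) in *Cxcl12* KO kidneys. Among 10 paralogs of the 10 genes, 2 had a positive log2 fold change in either cohort, and an unadjusted p under 0.05 was found for 2 in each. *Adm2*, a relative of *Adm*, had -1.58 (SE 0.41, edgeR adjusted p = 0.073) in *Myc* KO kidneys, with only 14 to 245 counts per kidney and 2.37 to 9.44 CPM among *Myc* controls. *Pdk4*, a relative of *Pdk1*, had 0.81 (SE 0.36, edgeR adjusted p = 0.37) in *Cxcl12* KO kidneys. *Vegfd* had -0.65 (edgeR adjusted p = 0.45) and -0.26 (edgeR adjusted p = 0.35).

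Between the control kidneys of the cohorts, 5 of the 82 genes passed edgeR's test, against 1.99% of all genes, and are named here because they passed. *Eno1*, a glycolytic enolase gene, had a log2 fold change of 1.31 (SE 0.19, adjusted p = 0.0011 in edgeR) with more in the *Cxcl12* cohort, and *Gys1*, the glycogen synthase gene, had 0.37 (SE 0.09, adjusted p = 0.043 in edgeR). *Slc2a3* had -1.12 (SE 0.28, adjusted p = 0.041 in edgeR), *Edn1*, which encodes the vasoconstrictor endothelin-1, had -0.89 (SE 0.22, adjusted p = 0.041 in edgeR), and *Plod2*, a collagen lysyl hydroxylase gene, had -0.50 (SE 0.11, adjusted p = 0.028 in edgeR), so these were lower in the *Cxcl12* cohort. *Eno1* has near-identical copies in the mouse genome, and its counts are uncertain. DESeq2 called 10 of the 82, against 4.99% of all genes, and limma-voom 2, against 1.57%.

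Kidneys of one group varied together in some of the 10 genes. The deviation of each kidney's log2 CPM from its group mean was correlated over 18 kidneys for the 9 genes with at least 50 counts in every kidney, which made 36 pairs, and p came from 100000 permutations of kidneys within groups. In 2 of the 36 pairs the adjusted p was under 0.05. *Pdk1* went with *Hif1a* (Pearson's r = 0.74, permutation p = 0.00099, adjusted p = 0.036, Spearman's rho = 0.75, permutation p = 0.0014, adjusted p = 0.050), and r was 0.68 without the 2 kidneys farthest from the median. *Bnip3* went against *Vegfa* (Pearson's r = -0.73, permutation p = 0.0024, adjusted p = 0.044, Spearman's rho = -0.70, permutation p = 0.0047, adjusted p = 0.084), and r was -0.62 without the 2 kidneys farthest from the median. By Spearman's rho, 0 of 36 pairs had an adjusted p under 0.05. The signs held within each class of unmapped share, with r of 0.64 and -0.66 in the 12 kidneys with at least 5% unmapped and of 0.70 and -0.88 in the other 6. Over all pairs, 22 were positive and 14 negative, with a median r of 0.08.

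**Figure D5:**
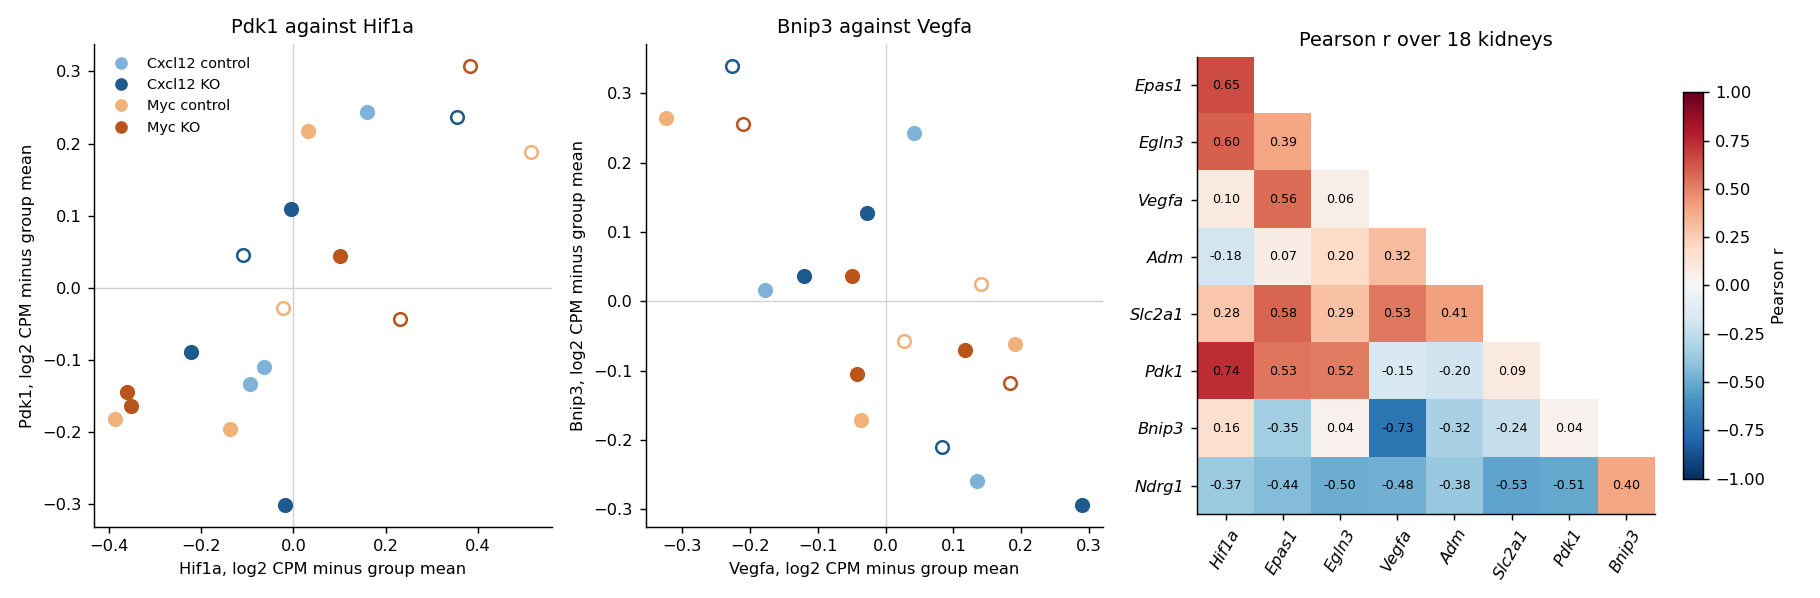
Deviation from the group mean in log2 CPM of *Pdk1* (y axis) against *Hif1a* (x axis), left, and of *Bnip3* against *Vegfa*, middle, with 1 point per kidney and hollow points for kidneys with under 5% of reads unmapped. The heat map on the right gives Pearson's r over 18 kidneys for each of the 36 pairs, from -0.73 for *Vegfa* with *Bnip3* to 0.74 for *Pdk1* with *Hif1a*.

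Cell type markers varied with these genes within groups too. Of 72 relations between the 9 genes and the summed levels of the 8 marker lists, 5 had an adjusted p under 0.05 by Pearson's r and 100000 permutations, and none did by Spearman's rho. *Epas1* went with podocyte markers (r = 0.86, rho = 0.74, permutation p = 0.00055 and 0.0023, adjusted p = 0.028 and 0.083, r = 0.77 without the 2 kidneys farthest from the median). Fibroblast and pericyte markers went with *Pdk1* (r = 0.79, rho = 0.80, permutation p = 0.00079 and 0.00086, adjusted p = 0.028 and 0.062, r = 0.78 without the farthest 2), with *Hif1a* (r = 0.75, rho = 0.69, permutation p = 0.0023 and 0.0063, adjusted p = 0.040 and 0.13, r = 0.64 without the farthest 2) and with *Epas1* (r = 0.75, rho = 0.58, permutation p = 0.0026 and 0.039, adjusted p = 0.040 and 0.15, r = 0.58 without the farthest 2). *Pdk1* went against proximal tubule markers (r = -0.67, rho = -0.58, permutation p = 0.0027 and 0.021, adjusted p = 0.040 and 0.15, r = -0.54 without the farthest 2). These relations were added after the data had been seen. *Pdk1* and *Hif1a* thus both varied with the fibroblast and pericyte markers, whose part in their correlation was not tested.

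The genes whose deviations were most like the mean standardized deviation of the 8 target genes, among 13759 genes with at least 1 CPM, were *Tgfbr2*, *Plet1os*, *Plet1*, *Tmem30b* and *Lamb3*. Their Pearson's r over 18 kidneys was 0.89, 0.86, 0.85, 0.84 and 0.83, and their Spearman's rho 0.79, 0.76, 0.83, 0.78 and 0.77. Since these are the highest of all genes searched, the values are a description. *Plet1os* lies antisense to *Plet1*, and without strand their reads cannot be told apart. *Tgfbr2* encodes a receptor of TGF-beta, and *Lamb3* a chain of laminin in basement membranes.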

How the data were processed

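RNA of whole kidneys was sequenced by the submitters. Per the labels and the submitters' processing notes, reads were trimmed with Trimmomatic 0.32 and aligned with STAR 2.4.0, and what the authors deposited is a table per kidney of unnormalized counts by gene, of which the column without strand was used. The gene models were GENCODE vM21 on GRCm38, by which 45143 of the 45706 gene identifiers received a symbol and 563 did not. Rows for unmapped, multimapping, ambiguous and unassigned reads were left out of library sizes. Groups came from the sample labels.

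Counts were tested with edgeR 4.0.16 (filterByExpr, TMM, quasi-likelihood test, two-sided) in R 4.3.3, within each cohort for the KO comparisons and over all 18 kidneys for the others. DESeq2 1.42.0 and limma 3.58.1 (voom) served as alternatives, as did other scaling, no filter, a replicate block and leaving out each kidney. So did a covariate for the class of unmapped share, and only the 12 kidneys with at least 5% unmapped reads. For a KO comparison, only those of its own cohort were used. Exact permutation tests of log2 CPM were two-sided. The edgeR fits were tested on simulated data. The 10 genes, the pathway lists and the 8 marker lists were chosen with earlier results of these data known, and from each pathway list the 2 genes with the largest log2 fold change in size and a mean of at least 1 CPM were named in each KO comparison.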

Additional observations from a re-analysis of the deposited data

How the results depend on the processing

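In the *Cxcl12* comparison, which called 0 genes, DESeq2 called 355 and no filter on low counts 214. The kidneys of that cohort with at least 5% unmapped reads gave 80, the unmapped class as covariate 123 and the fit over 18 kidneys 25. The *Myc* comparison (246) gave 1139 with DESeq2 and 8 in the kidneys of that cohort with at least 5% unmapped reads. It gave 954 with the covariate, 18 with the replicate block and 683 in the fit over 18 kidneys. The difference between deletions (11) gave 314 with DESeq2, 3 with limma-voom and 44 in the 12 kidneys with at least 5% unmapped reads. It gave 133 with the covariate and 1 with the block. For the control cohorts DESeq2 called 794 genes and 2 of the 10. For the KO cohorts the 12 kidneys gave 337 genes and 1 of the 10. The causes were not tested. Leaving out 1 kidney at a time gave 0 (without *Cxcl12* KO 3) to 15 genes (without *Cxcl12* KO 1), 21 (without *Myc* KO 2) to 877 (without *Myc* control 3), 1 (without *Cxcl12* control 3) to 75 (without *Myc* KO 5), 49 (without *Cxcl12* control 1) to 611 (without *Myc* control 4) and 1324 (without *Myc* KO 4) to 2948 (without *Cxcl12* KO 3). Of the 10 genes it called 0, 0 to 1, 0, 1 to 2 and 3 to 5.

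Log2 fold changes near 0 turned their sign. For the *Cxcl12* deletion, *Ankrd37* had 0.046 in the kidneys of that cohort with at least 5% unmapped reads. It had 0.054 with the covariate, 0.018 with the block and 0.0075 as the plain difference of the permutation test. *Ndrg1* had -0.093 with the block. For the *Myc* deletion, *Adm* had 0.033 and *Ankrd37* 0.023 in the kidneys of that cohort with at least 5% unmapped reads. *Ankrd37* had 0.0025 in limma-voom. In the difference, *Adm* had 0.033 and *Hif1a* 0.021 in the 12 kidneys, *Hif1a* 0.093 with the covariate, *Ankrd37* 0.053 in limma-voom and *Ndrg1* 0.0050 with the block. *Epas1* had 0.0084 between controls in the 12 kidneys. Without 1 kidney, the ranges that crossed 0 were, for the *Cxcl12* deletion, -0.038 to 0.11 for *Vegfa*, -0.025 to 0.35 for *Adm*, -0.023 to 0.22 for *Bnip3*, -0.28 to 0.22 for *Ankrd37* and -0.028 to 0.091 for *Epas1*. They were -0.0080 to 0.14 for *Pdk1* and -0.18 to 0.15 for *Ankrd37* for the *Myc* deletion, -0.059 to 0.10 for *Slc2a1*, -0.26 to 0.22 for *Ankrd37* and -0.16 to 0.094 for *Hif1a* in the difference, and -0.045 to 0.15 for *Pdk1*, -0.18 to 0.060 for *Bnip3* and -0.076 to 0.41 for *Ankrd37* between controls. Between KO groups, *Hif1a* had adjusted p-values of 0.055 to 0.072 in edgeR without *Cxcl12* KO 2 or 4 or *Myc* KO 3, 4 or 5, and DESeq2 also called *Vegfa* (adjusted p = 0.031), as did edgeR without *Cxcl12* KO 3 or *Myc* control 4. Between controls, *Hif1a* passed in edgeR without *Myc* control 4 (-0.73, adjusted p = 0.042).

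The deviations of same-numbered kidneys had correlations of -0.032 to 0.134 over 3 *Cxcl12* pairs and of -0.211 to 0.402 over 5 *Myc* pairs. With so few pairs and no comparison with unequal numbers, these values cannot show whether the numbers pair the kidneys. The block could not be fitted between cohorts. Among 36 pairs of genes, 0 passed by Spearman's rho, 0 in the 12 kidneys and 10 without removal of group means. Precision is limited by 3 *Cxcl12* controls and, for *Ankrd37*, by its counts.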
